A study of Homo sapiens with 6 samples.

Results

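The genes described here are 44 components of the TGF-beta, BMP and SMAD pathway, chosen by name with earlier results of these data known. They comprise 9 ligands, 11 receptors, 8 SMADs, 11 antagonists and other regulators, and 5 target genes. Of these, 39 stood in the gene table of 20668 genes and 38 were abundant enough to be tested. The cells were SH-SY5Y, an established line from a human neuroblastoma, sequenced as 3 libraries of wild-type (WT) cells and 3 libraries of DNAJC12 knockout cells made with CRISPR/Cas9. All cultures were untreated, and the stated question was the part that DNAJC12, a J-domain co-chaperone, plays in cell invasion. The labels do not say whether the knockout is 1 clone or several, or whether replicates were separate cultures, so the p-values rest on a spread between libraries that may be purely technical.

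TGF-beta family ligands are secreted dimers that bring a type II and a type I receptor kinase together. The type I receptor then phosphorylates receptor-regulated SMADs: TGF-beta and activin receptors act mainly on SMAD2 and SMAD3, BMP receptors on SMAD1, SMAD5 and SMAD9. These pair with the shared partner SMAD4 and move to the nucleus, where the ID genes and the inhibitory SMAD6 and SMAD7 are common immediate targets. In the sympathetic lineage, from which neuroblastoma arises, BMPs help to specify noradrenergic neurons, and TGF-beta is a well-known inducer of mesenchymal and matrix genes.

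DNAJC12 itself was measured at 23.05, 21.37 and 20.04 CPM in WT replicates 1, 2 and 3 and at 5.91, 5.88 and 4.85 CPM in the knockout replicates (log2 fold change -1.95 ± 0.13, adjusted p = 1.25e-06). CPM are table counts scaled to the library size with TMM factors, every fold change is on the log2 scale, knockout against WT, with its SE, and values per library are always given for replicates 1, 2 and 3 in that order. Library totals lay between 19321842 and 21869659 counts. Markers of the noradrenergic neuroblastoma state, 11 of 12 of which were in the table, summed to 4364 to 4496 CPM in WT and 3392 to 3572 CPM in the knockout, with 3 genes higher and 7 lower. CHGB had the largest drop, from 792, 726 and 667 CPM in WT to 165, 138 and 164 CPM in the knockout. CHGA rose (1.71 ± 0.08). TH, which defines the catecholamine lineage, was not among the table's genes. Mesenchymal or fibroblast markers, 13 of 14 of which were in the table, summed to 3279 to 3458 CPM in WT and 4659 to 4913 CPM in the knockout, with 7 higher and 2 lower. VIM was the largest part of that sum, at 1977, 2052 and 2230 CPM in WT and 3338, 3122 and 3323 CPM in the knockout. LUM (-1.17 ± 0.07) and CD44 (-0.29 ± 0.07) fell. In bulk RNA, fewer cells of a type and less RNA per cell cannot be told apart. What part these shifts of the marker sums have in the results was not tested. The Schwann cell sum was 154 to 161 CPM in WT and 84.7 to 98.9 CPM in the knockout, and its regulator SOX10 was not in the table. The epithelial sum was 23.1 to 24.7 CPM in WT and 84.6 to 94.7 CPM in the knockout, with 2 genes higher and 1 lower. Most of it in the knockout came from KRT8 and KRT18, while CDH1 stayed under 0.3 CPM and EPCAM under 2 CPM in every library. CLDN4 fell from 10.7, 9.64 and 12.4 CPM to 3.21, 3.08 and 3.68 CPM (adjusted p = 2.5e-05), and KRT19 did not pass (-1.23 ± 0.41, adjusted p = 0.0512). The endothelial markers PECAM1, CDH5 and KDR were not in the table, and the leukocyte marker PTPRC stayed under 1 CPM. The leukocyte sum was 10.46 to 14.01 CPM in WT and 17.96 to 26.43 CPM in the knockout, nearly all of it CD68, a lysosomal protein gene that is not confined to leukocytes and rose (0.95 ± 0.17, adjusted p = 0.0021).

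Of the 38 tested genes, 17 were higher in the knockout, 3 were lower and 18 did not pass the threshold, an adjusted p of 0.05 over all 16403 genes tested. Over all of those genes 26.0% passed, 14.5% higher and 11.5% lower. The members' median log2 fold change was 0.32, beside 0.00 over all genes tested. All 38 lay above the filter's cutoff of 0.501 CPM in all 6 libraries, so that none entered the test through 1 genotype alone. At least 2-fold changes were called for 11 members, 10 higher and 1 lower, while 9.24% of all genes passed the same rule, 6.36% upward. The 20 members past the threshold were the ones whose WT and knockout values did not overlap, a property that 41.7% of all genes shared.

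**Figure D1:**
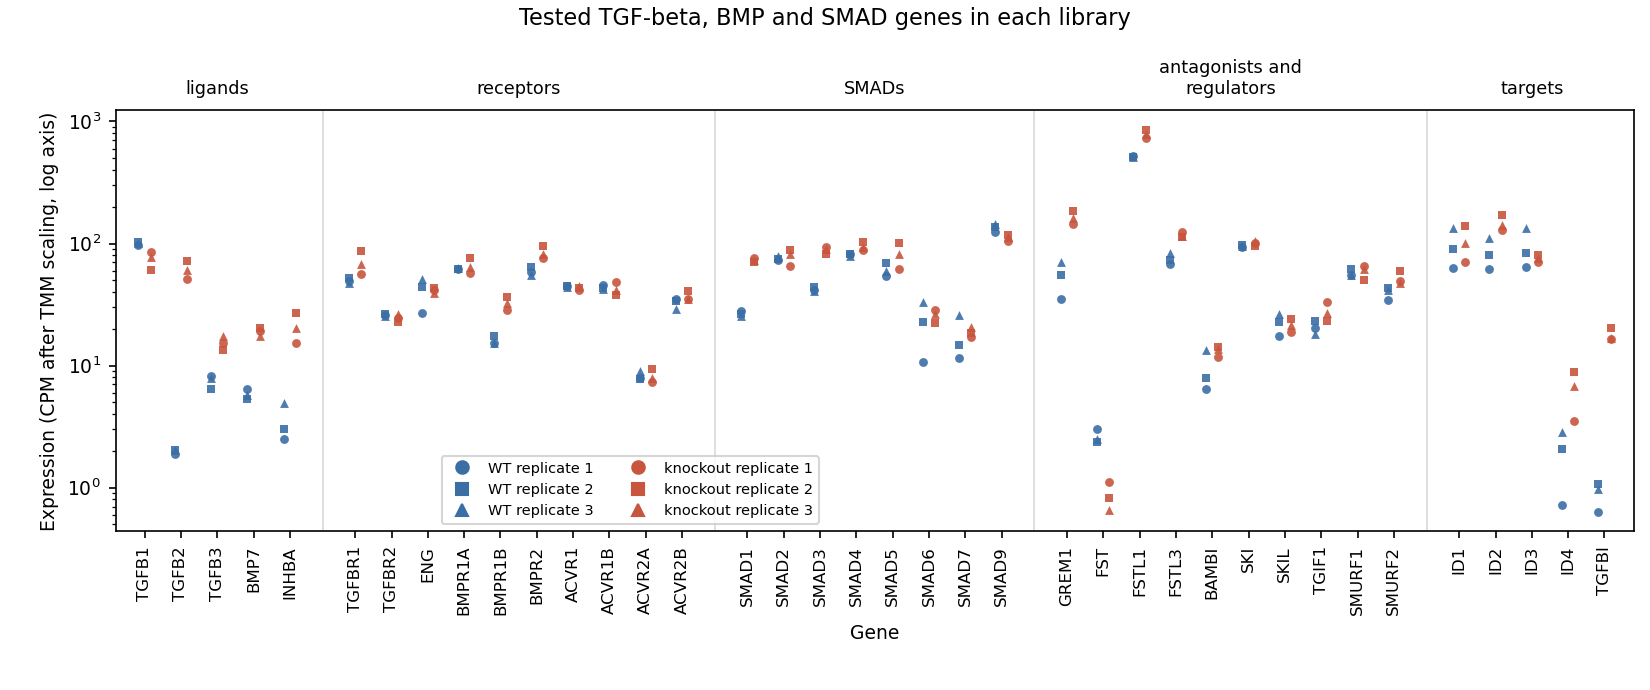
Expression of the 38 tested genes in CPM on a log axis, grouped by role, with 1 point per library (blue, WT; red, knockout; marker shapes, replicates). TGFB2 and TGFBI lie between 0.630 and 2.05 CPM in WT and between 16.4 and 71.7 CPM in the knockout, whereas ID1, ID3, SMAD6 and SMAD7 overlap.

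**Figure D2:**
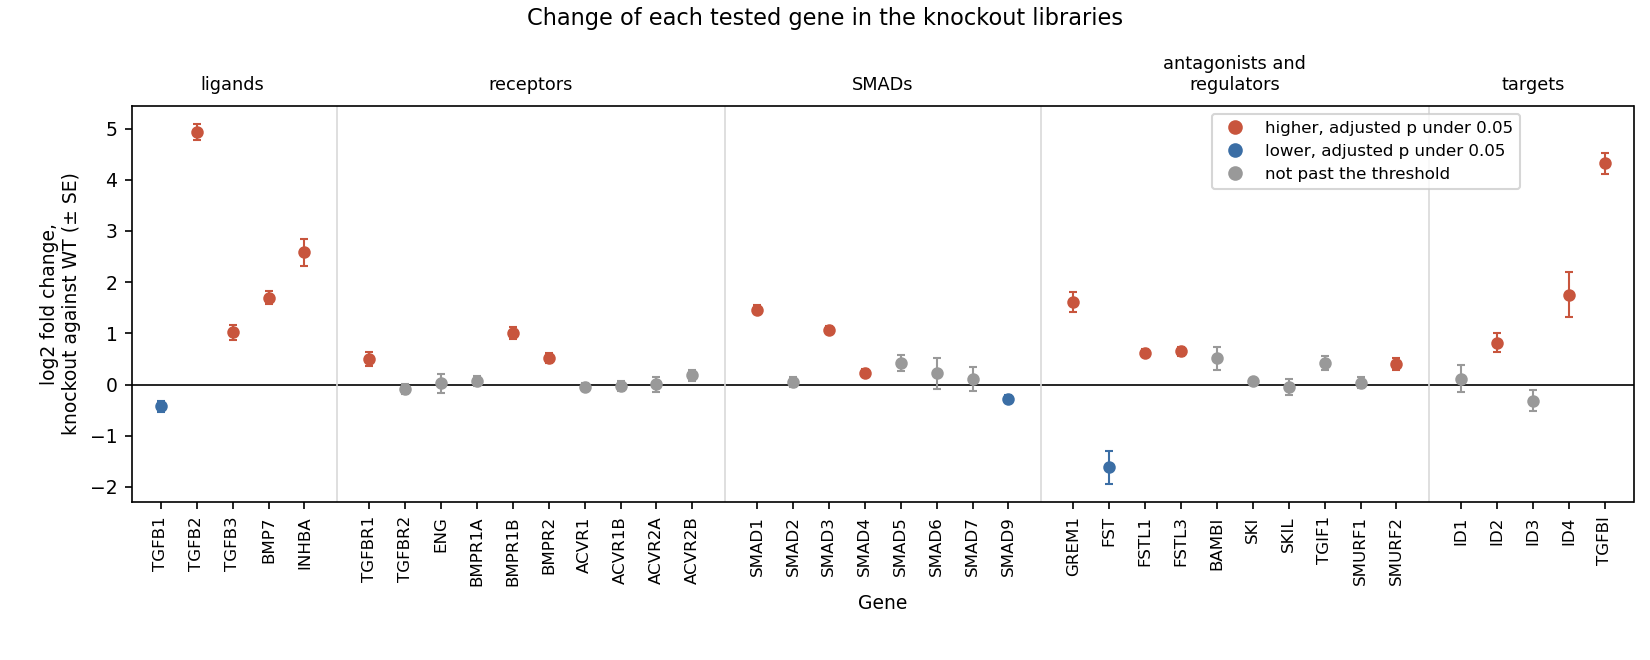
Log2 fold change of each tested gene, knockout against WT, with SE bars, grouped by role (red, higher; blue, lower; grey, not past the adjusted threshold). All 5 tested ligands passed, 4 higher and 1 lower, beside 26.0% of all genes tested, while 7 of 10 receptors lie close to 0.

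Of the 9 ligands named, all 5 that could be tested passed the threshold, beside 26.0% of all genes tested. TGFB2, TGFB3, BMP7 and INHBA went upward and TGFB1 downward. The calls of TGFB1 and TGFB3 did not hold in every setting, as given below. The 11 other ligands tested, described further below, had 3 higher, 4 lower and 4 not past the threshold. TGFB2 encodes TGF-beta 2, an isoform prominent in the nervous system and in epithelial to mesenchymal transitions of the embryo. It was read at 1.89, 2.03 and 2.05 CPM in WT and at 51.3, 71.7 and 60.2 CPM in the knockout. The groups lay far apart, and knockout replicate 1 was the lowest of its group. The log2 fold change was 4.94 ± 0.16 (30.7-fold, adjusted p = 1.25e-08), from 119 counts in WT and 3787 in the knockout. Most of its reads belonged to the protein-coding transcript ENST00000366930, which held 75.7% of them in WT and 84.7% in the knockout. TGFB2 occupies positions 218345336 to 218444619 of chromosome 1 (RefSeq, GRCh38.p14). The 40 tested genes around it had a median log2 change of 0.03, and for all 38 members such medians lay between -0.11 and 0.21, with 33 to 40 neighbours each. Neighbours were read because earlier results had shown parts of chromosomes 3 and 5 shifted as a whole. The highest median was that of SKIL on chromosome 3, with 12 of its 40 neighbours higher and 1 lower. What part such regional shifts have in the members' values was not tested.

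The promoter of TGFB2 is shown because its RNA changed most among the tested members. The 250 bases before its RefSeq start, chr1:218345086-218345335, plus strand of GRCh38.p14, were searched on both strands for the SMAD-binding sequence CAGAC, the GC-rich SMAD sequence GGCGCC, the CREB sequence TGACGTCA, the AP-1 sequence TGACTCA and the E-box CACGTG. Capitals mark the matches: CAGAC at 243 to 239 and at 53 to 49 bases before the start, and CACGTG at 49 to 44, sharing 1 base with the second CAGAC.
TGFB2 promoter: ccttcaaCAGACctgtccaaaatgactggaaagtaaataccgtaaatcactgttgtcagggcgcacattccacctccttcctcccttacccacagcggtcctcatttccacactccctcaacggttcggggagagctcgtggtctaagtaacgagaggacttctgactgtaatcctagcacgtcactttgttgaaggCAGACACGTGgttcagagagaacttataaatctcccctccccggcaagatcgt
Among 35116 RefSeq promoter windows of this length, 38.0% held CAGAC, 16.4% GGCGCC, 1.65% TGACGTCA, 4.20% TGACTCA and 6.34% CACGTG. A match describes the letters only and does not show that a factor binds there. The transcript with most TGFB2 reads is annotated in GENCODE from 218346235, 899 bases after the RefSeq start, so the window shown does not adjoin that start.

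TGFB1, the most widely expressed isoform, moved the other way. It was read at 96.9, 102 and 102 CPM in WT and 85.0, 61.2 and 77.3 CPM in the knockout. Every knockout library lay below every WT library, and knockout replicate 2, the highest for TGFB2, was the lowest for TGFB1. The log2 fold change was -0.43 ± 0.11 (74.4% of WT, adjusted p = 0.0143). The call was lost without WT replicate 2 (adjusted p = 0.0545) or WT replicate 3 (0.0520). TMEM91, which overlaps TGFB1 on the opposite strand, fell from 194 counts to 102 (-0.97, adjusted p = 0.0225), while HNRNPUL1 (0.10) and CCDC97 (0.20), which overlap it too, did not pass. The libraries were stranded, but the sources do not state the strand setting of the counting. Whether reads of such overlapping genes were kept apart is therefore not known.

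TGFB3, the third isoform, was read at 8.28, 6.45 and 7.98 CPM in WT and 15.4, 13.3 and 17.4 CPM in the knockout. The ranges were separate, with a log2 fold change of 1.02 ± 0.15 (adjusted p = 0.000455). With length-corrected transcript counts the change was of like size (0.997) and missed the threshold (adjusted p = 0.137).

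Because TPM is scaled by transcript length, it allows the isoforms to be set side by side. TGFB1 was at 55.9 ± 1.53 TPM in WT and 39.7 ± 5.53 TPM in the knockout, TGFB2 at 0.891 ± 0.116 and 19.8 ± 4.13 TPM, and TGFB3 at 4.14 ± 1.69 and 7.83 ± 3.68 TPM (SD, n = 3). The order in WT was thus TGFB1, TGFB3, TGFB2, and in the knockout TGFB1, TGFB2, TGFB3. Part of the TGFB2 TPM lay on ENST00000479322, a processed transcript not annotated as protein-coding. It held 0.363, 0.599 and 0.582 TPM in WT and 4.98, 8.94 and 5.97 TPM in the knockout. The share of TGFB2 in the summed TPM of the 3 isoforms was 1.30%, 1.54% and 1.54% in WT and 22.2%, 38.6% and 28.6% in the knockout. The mean share was 28.3 percentage points higher in the knockout (1.46% ± 0.136 against 29.8% ± 8.25, SD, n = 3), with a two-sided exact permutation p of 0.1, the smallest that 3 against 3 libraries can give. TGFB1 held 91.8% ± 2.57 of the sum in WT and 58.8% ± 4.62 in the knockout, and so remained the most abundant isoform in all 6 libraries. By table counts per kilobase of exon, the TGFB2 share was 1.17% ± 0.0242 in WT and 31.5% ± 7.06 in the knockout (SD, n = 3).

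INHBA encodes the activin A subunit, a ligand that signals through SMAD2 and SMAD3. It was read at 2.52, 3.05 and 4.96 CPM in WT and 15.2, 27.2 and 20.4 CPM in the knockout. The lowest knockout library stood well above the highest WT library, although each group was itself uneven. The log2 fold change was 2.58 ± 0.27 (adjusted p = 4.02e-05). INHBB, the other common activin subunit, had no read in the transcript files.

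Among the 4 BMP ligands of the set, BMP7 was the only one tested. It was read at 6.49, 5.28 and 5.73 CPM in WT and 19.1, 20.2 and 17.5 CPM in the knockout, 2 tight and separate groups (1.70 ± 0.13, adjusted p = 4e-06). BMP2 did not pass the filter on low counts, with 0, 1 and 0 counts in WT and 4, 11 and 19 in the knockout. Their summed counts gave a ratio of 32.9, with an exact 95% interval of 5.53 to 1339 that covers counting error only. In 6 alternative settings that kept it, among them DESeq2 (adjusted p = 0.00827) and edgeR with no filter (0.0136), BMP2 passed the threshold. Where a library was left out, BMP2 entered the test through the knockout libraries alone. Those calls therefore follow in part from how it entered the test. BMP5 had 2 reads in each knockout library and 0 in WT, and BMP4 had none.

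Of the 10 tested receptors, 3 rose, none fell, and the median log2 fold change was 0.05. The share called, 30%, is close to the 26.0% of all genes tested. BMPR1B, a type I BMP receptor, was read at 15.4, 17.6 and 15.3 CPM in WT and 28.5, 36.3 and 32.4 CPM in the knockout. The groups were clearly separate (1.01 ± 0.12, adjusted p = 9.18e-05). BMPR2, the type II BMP receptor, was read at 58.3, 64.0 and 54.9 CPM in WT and 75.9, 95.9 and 82.7 CPM in the knockout. It rose by a smaller step (0.52 ± 0.10, adjusted p = 0.00273), again with knockout replicate 2 highest. TGFBR1, the type I TGF-beta receptor, was read at 49.5, 52.0 and 47.2 CPM in WT and 55.9, 86.8 and 67.3 CPM in the knockout (0.50 ± 0.14, adjusted p = 0.0216). Its knockout libraries were spread widely, and the call was lost without any one WT library (adjusted p = 0.0622 to 0.0986) or without knockout replicate 3 (0.0515).

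The 7 other tested receptors had log2 fold changes between -0.08 and 0.18 and overlapping groups. TGFBR2, the type II partner of TGFBR1, was at -0.08 ± 0.10 and the BMP receptor BMPR1A at 0.08 ± 0.10. The activin and BMP receptors ACVR1, ACVR1B, ACVR2A and ACVR2B lay at -0.04, -0.03, 0.00 and 0.18. ENG, a co-receptor best known from endothelium, was at 0.02 ± 0.18, with WT values of 27.2, 44.1 and 50.9 CPM around knockout values of 41.3, 43.3 and 39.3 CPM. The co-receptor TGFBR3, which presents TGF-beta 2 to the signalling receptors, had 7 reads over all 6 libraries.

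On the TPM scale the WT levels of ENG (19.7 ± 5.67), BMPR1A (17.1 ± 0.285), TGFBR1 (16.2 ± 1.11) and ACVR1B (14.7 ± 2.29, SD, n = 3) came first, and neighbours in that order differed by less than the larger of their SDs. BMPR2 and TGFBR2 followed at 7.48 and 7.03 TPM, BMPR1B, ACVR2B and ACVR2A at 4.83, 4.64 and 3.77 TPM. In the knockout BMPR1B reached 10.1 ± 1.52 TPM, next to BMPR2 at 10.6 ± 1.24 TPM. ACVR1 is left out of this order because its transcripts held 58.9% of the table's reads.

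Of the 8 SMADs, SMAD1, SMAD3 and SMAD4 rose, SMAD9 fell and 4 did not pass. SMAD1, which relays BMP signals, was read at 28.2, 26.3 and 25.3 CPM in WT and 76.6, 70.2 and 73.1 CPM in the knockout. Replicates lay close together in both groups, and the log2 fold change was 1.46 ± 0.08 (adjusted p = 4.62e-07). SMAD3, which relays TGF-beta and activin signals and binds DNA directly, was read at 41.9, 44.3 and 40.6 CPM in WT and 93.4, 81.8 and 91.0 CPM in the knockout. Its groups were as well separated (1.07 ± 0.08, adjusted p = 4.06e-06). A single transcript, ENST00000327367, held 99.7% of its reads in WT and 98.6% in the knockout.

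SMAD9, the third SMAD of the BMP branch, was read at 123, 137 and 144 CPM in WT and 106, 116 and 112 CPM in the knockout. The step was small (-0.28 ± 0.08, adjusted p = 0.0229), and it missed the threshold without WT replicate 2 (0.0833), WT replicate 3 (0.0798) or knockout replicate 3 (0.0865), and with length-corrected counts (0.0738). SMAD4, the common partner, was read at 81.7, 81.8 and 79.4 CPM in WT and 88.7, 103 and 94.3 CPM in the knockout (0.24 ± 0.07, adjusted p = 0.0406). It kept the call without knockout replicate 1 and lost it without any other library (0.0873 to 0.128), with library size alone (0.0997) and with no filter on low counts (0.0584). SMAD2 (0.05 ± 0.10) and SMAD5 (0.42 ± 0.16, adjusted p = 0.0707) did not pass. SMAD5 passed without knockout replicate 1 (0.00249), the lowest of its group, and by DESeq2 (0.0251).

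The inhibitory SMAD6 and SMAD7, which damp BMP and TGF-beta signals and are themselves induced by them, overlapped between the genotypes. SMAD6 was read at 10.8, 22.7 and 32.9 CPM in WT and 28.3, 22.3 and 26.5 CPM in the knockout (0.22 ± 0.30). SMAD7 was read at 11.6, 14.8 and 26.2 CPM in WT and 17.3, 18.5 and 20.9 CPM in the knockout (0.11 ± 0.24). For both genes the knockout libraries fell inside the WT range. SMAD7 passed when WT replicate 3, its highest library, was left out (0.51, adjusted p = 0.0420).

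In TPM, SMAD2 was the most abundant SMAD in both genotypes (53.3 ± 0.326 in WT and 53.7 ± 5.05 in the knockout, SD, n = 3). In WT it was followed by SMAD9 (38.0 ± 4.08), SMAD4 (27.3 ± 2.68), SMAD5 (16.5 ± 3.10) and SMAD1 (16.2 ± 2.13), the last pair differing by less than its SDs. Most of the SMAD2 TPM lay on the short transcripts ENST00000586040 (1971 bases) and ENST00000586514 (828 bases). The rank of SMAD2 therefore depends on how reads were divided among transcripts. In CPM, which are not scaled by length, SMAD9 stood above SMAD2 in WT (135 against 75.8) and in the knockout (111 against 78.4). In the knockout SMAD1 stood second, at 45.8 ± 2.30 TPM, above SMAD4 (36.3 ± 4.73) and SMAD9 (28.98 ± 1.15). That rank too depends on how reads were divided. The SMAD1 transcript ENST00000302085 held 82.1% of its knockout reads but 30.4, 27.1 and 27.4 TPM. In CPM, SMAD1 (73.3) stood below SMAD4 (95.3) and SMAD9 (111) in the knockout. SMAD3 went from 8.85 ± 0.523 TPM to 18.6 ± 2.83 TPM, level with SMAD5 at 18.9 ± 5.17 TPM.

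The SMAD3 promoter is shown as that of the SMAD on the TGF-beta side that changed. The 250 bases before the RefSeq start are chr15:67065352-67065601, plus strand. Capitals mark CACGTG at 173 to 168 bases before the start and GGCGCC at 136 to 131 and at 106 to 101; the other 3 sequences searched were not found in this window. The transcript with nearly all reads starts 243 bases after the RefSeq start.
SMAD3 promoter: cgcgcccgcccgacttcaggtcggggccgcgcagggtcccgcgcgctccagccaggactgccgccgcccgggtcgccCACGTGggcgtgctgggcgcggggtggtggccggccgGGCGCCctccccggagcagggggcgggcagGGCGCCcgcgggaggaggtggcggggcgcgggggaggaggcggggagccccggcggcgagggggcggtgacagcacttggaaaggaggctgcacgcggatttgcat

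Among 10 tested antagonists and intracellular regulators, 4 rose, 1 fell and 5 did not pass. GREM1, which encodes the secreted BMP antagonist gremlin 1, was read at 34.9, 54.9 and 70.1 CPM in WT and 145, 183 and 162 CPM in the knockout. WT replicate 3 was 2.01 times WT replicate 1, yet the groups stayed well apart (1.62 ± 0.20, adjusted p = 0.000148). The transcripts assigned to GREM1 held 9.24% of its table reads. Most of the counts behind this call were therefore not traced to a GREM1 transcript. FST, which encodes the activin-binding follistatin, was read at 3.05, 2.39 and 2.51 CPM in WT and 1.12, 0.823 and 0.653 CPM in the knockout. It was the single gene of the 10 that fell (-1.61 ± 0.32, 32.7% of WT, adjusted p = 0.00369), from 159 counts to 53, while INHBA, whose product it binds, rose.

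FSTL3 and FSTL1 rose. FSTL3, another activin-binding protein, was read at 67.4, 72.8 and 83.7 CPM in WT and 125, 112 and 115 CPM in the knockout (0.65 ± 0.09, adjusted p = 0.000306). FSTL1, a secreted glycoprotein, was read at 520, 516 and 513 CPM in WT and 738, 859 and 787 CPM in the knockout (0.62 ± 0.06, adjusted p = 4.31e-05). Both had separate groups, and the WT libraries of FSTL1 differed by no more than 1.01 times. The transcripts assigned to FSTL1 held 66.6% of its table reads. Of those transcript reads, the retained-intron transcript ENST00000488318 held 63.8% in WT and 60.7% in the knockout. NOG, which encodes the BMP antagonist noggin, had 8 reads over all libraries.

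Inside the cell, SMURF2, a ubiquitin ligase for SMADs and receptors, was read at 34.5, 42.9 and 41.2 CPM in WT and 49.5, 59.8 and 47.4 CPM in the knockout. Its small rise (0.40 ± 0.11, adjusted p = 0.0253) missed the threshold without WT replicate 1 (0.105), WT replicate 3 (0.0622) or knockout replicate 2 (0.0572), and with length-corrected counts (0.0946). Its relative SMURF1 (0.04 ± 0.10), the nuclear SMAD co-repressors SKI (0.07 ± 0.07) and SKIL (-0.04 ± 0.16) and the homeobox co-repressor TGIF1 (0.42 ± 0.14, adjusted p = 0.0532) did not pass. TGIF1 passed by DESeq2 (0.0354) and without knockout replicate 2 (0.0120). BAMBI, a decoy receptor that lacks the kinase, was read at 6.49, 7.97 and 13.4 CPM in WT and 11.8, 14.2 and 13.7 CPM in the knockout (0.51 ± 0.23, adjusted p = 0.131). It passed without WT replicate 3, which alone reached the knockout values (0.87, adjusted p = 0.00543).

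The 5 targets divided. TGFBI, which encodes a secreted matrix protein named for its induction by TGF-beta, was read at 0.630, 1.07 and 0.971 CPM in WT and 16.4, 20.2 and 16.8 CPM in the knockout. All 3 knockout libraries lay far above the highest WT library (4.32 ± 0.20, 19.97-fold, adjusted p = 1.26e-07), from 53 counts to 1102. With length-corrected counts the change was 3.43. The ID genes encode helix-loop-helix proteins that block the DNA binding of neuronal differentiation factors, and all 4 are known BMP targets.

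ID2 was read at 61.5, 79.8 and 110 CPM in WT and 130, 171 and 143 CPM in the knockout (0.82 ± 0.18, adjusted p = 0.00645). Its WT libraries were spread 1.79-fold, and the highest of them stayed below the lowest knockout library. ID2-AS1, on the opposite strand, rose too (0.94, adjusted p = 0.000235). Whether the counting kept the reads of these overlapping genes apart is not known. ID4 was read at 0.726, 2.08 and 2.86 CPM in WT and 3.51, 8.81 and 6.76 CPM in the knockout (1.76 ± 0.44, adjusted p = 0.0136). It was uneven in both groups and missed the threshold with length-corrected counts (0.0723).

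ID1 and ID3, in contrast, did not pass. ID1 was read at 62.6, 90.6 and 133 CPM in WT and 70.4, 138 and 101 CPM in the knockout (0.11 ± 0.27). ID3 was read at 64.7, 84.4 and 135 CPM in WT and 71.0, 81.0 and 76.6 CPM in the knockout (-0.31 ± 0.21, adjusted p = 0.320). In both, the WT libraries spanned more than 2-fold and enclosed most or all of the knockout values. In TPM, ID1 was at 162 ± 59.4 and 164 ± 55.9, ID2 at 113 ± 31.0 and 200.0 ± 33.2, ID3 at 172 ± 63.1 and 133 ± 10.5, and ID4 at 0.813 ± 0.449 and 2.64 ± 1.12 in WT and knockout (SD, n = 3). ID3, ID1 and ID2, in that order, led in WT, and any pair of them differed by less than the larger of its SDs.

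Promoters of 3 targets are shown because they differ in response: TGFBI and ID4 rose and ID1 did not pass. Each is on the plus strand of GRCh38.p14 and ends before the first annotated exon base. TGFBI is given as chr5:136028738-136028894 (157 bases), with GGCGCC at 111 to 106 bases before the RefSeq start in capitals. ID4 is given as chr6:19837120-19837369 (250 bases), with CAGAC at 205 to 201 in capitals. ID1 is given as chr20:31605039-31605282 (244 bases), where none of the 5 sequences was found. Only TGFBI transcripts with at least 10% of the gene's reads in either genotype were examined. Among them ENST00000442011 starts beside the window and held 8.13% of the reads in WT and 47.0% in the knockout. The others examined start 20528 or more bases after the RefSeq start.
TGFBI promoter: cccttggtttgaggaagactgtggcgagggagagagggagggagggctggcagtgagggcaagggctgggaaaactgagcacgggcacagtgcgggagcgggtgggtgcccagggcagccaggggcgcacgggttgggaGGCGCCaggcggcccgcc
ID4 promoter: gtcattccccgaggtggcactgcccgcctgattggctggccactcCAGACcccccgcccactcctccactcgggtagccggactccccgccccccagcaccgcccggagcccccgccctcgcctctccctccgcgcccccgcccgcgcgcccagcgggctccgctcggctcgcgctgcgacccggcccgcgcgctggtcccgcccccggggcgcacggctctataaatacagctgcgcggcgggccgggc
ID1 promoter: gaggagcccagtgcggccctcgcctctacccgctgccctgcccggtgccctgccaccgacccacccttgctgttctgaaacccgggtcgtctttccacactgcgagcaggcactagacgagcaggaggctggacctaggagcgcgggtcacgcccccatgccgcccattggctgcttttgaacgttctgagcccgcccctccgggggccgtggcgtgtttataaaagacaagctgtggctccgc
Windows cut to 157 bases held GGCGCC in 9.69% of all RefSeq promoters, and windows of 244 bases held CAGAC in 37.3% of them. None of the 5 sequences was common to the TGFBI and ID4 windows.

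A feature shared by ID1 to ID4, SMAD6, SMAD7 and BAMBI, and not used in choosing the genes, was their spread among WT libraries. The highest WT library was at least 1.5 times the lowest in 12 of 38 members (31.6%) and in 19.1% of all genes tested, a cutoff set after the values were seen. Beside those 7 genes the 12 included INHBA, ENG, GREM1, SKIL and TGFBI. In 11 of the 12, all but TGFBI, WT replicate 1 was the lowest and WT replicate 3 the highest, an order found in 632 of the 3135 such genes overall (20.2%). The ratio was 3.94 for ID4, 3.06 for SMAD6, 2.26 for SMAD7, 2.13 for ID1, 2.09 for ID3 and 2.06 for BAMBI. Among the knockout libraries, 6 members and 20.9% of all genes reached a ratio of 1.5.

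Leaving out WT replicate 3 moved ID3 from -0.31 to 0.03, ID1 from 0.11 to 0.43 and SMAD6 from 0.22 to 0.62, none of them past the threshold. Leaving out WT replicate 1 gave -0.53, -0.12 and -0.12 for the same genes. The sign of each of these 3 changes turned when 1 WT library was left out, and that of ID1 also without knockout replicate 2 (-0.15), while ID2, ID4, GREM1 and INHBA stayed past the threshold without any one library.

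**Figure D3:**
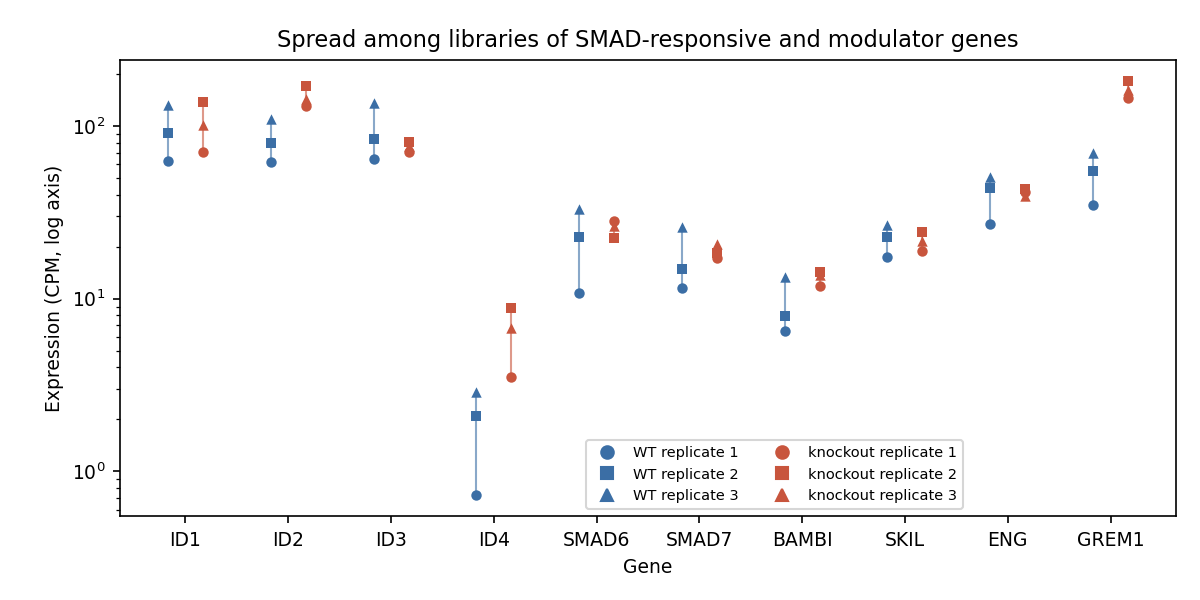
Expression in CPM on a log axis of 10 of these genes, with 1 point per library and a line from the lowest to the highest library of each group (blue, WT; red, knockout; marker shapes, replicates). WT replicate 1 (circle) is the lowest and WT replicate 3 (triangle) the highest WT point in each of the 10 genes. Not drawn are INHBA, which has the same order, and TGFBI, whose highest WT library was replicate 2.

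Other genes of the pathway were read from 7 further lists of 153 genes, of which 133 were in the table and 117 tested. These lists too were chosen with earlier results of these data known. Of the 117 tested genes, 49 rose, 15 fell and 53 did not pass, and the median log2 fold change was 0.25. THBS1, LTBP2, PMEPA1 and RUNX2 stand in 2 lists each, and the count takes them once. Unlike the members, 13 of the 117 reached the filter's cutoff throughout 1 genotype only (9 called higher, 2 lower), so that their calls follow in part from how they entered the test. Among them are GDF6, GDF7, GDF10, THBS1, FSTL4 and RUNX1, high in the knockout, and NRROS and SOSTDC1, high in WT. Genes outside the 4 smallest adjusted p-values of a list were named after their values were seen.

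Of 11 other ligands tested, 3 were higher and 4 lower (median -0.25). The 3 that rose, all of which entered the test through the knockout libraries, were GDF7, GDF6 and GDF10, BMP-like ligands that were close to silent in WT. GDF7 was read at 0.194, 0.152 and 0.358 CPM in WT and 7.38, 9.29 and 7.98 CPM in the knockout (5.10 ± 0.30, adjusted p = 6.98e-07). GDF6 went from 0.581, 0.203 and 0.358 CPM to 5.50, 11.5 and 8.82 CPM (4.47 ± 0.39), and GDF10 from 7 summed counts to 124 (4.03 ± 0.49). BMP8B (-0.99 ± 0.16), GDF15 (-0.81 ± 0.13), GDF1 (-0.48 ± 0.12) and GDF11 (-0.34 ± 0.07) fell.

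Genes that store or activate latent TGF-beta in the matrix had 7 of 16 higher and 2 lower (median 0.41). LTBP1, which tethers latent TGF-beta, was read at 32.3, 32.2 and 29.2 CPM in WT and 113, 138 and 130 CPM in the knockout (2.02 ± 0.09, adjusted p = 1.12e-07). THBS1, an activator of the latent complex, went from 0.484, 1.78 and 1.64 CPM to 41.8, 36.4 and 41.3 CPM (4.94 ± 0.26). FBN1, the fibrillin to which the complex is anchored, rose by 1.35 ± 0.07, and ITGB5, a subunit of an integrin that binds it, by 1.09 ± 0.09. The 2 that fell were NRROS (-3.29 ± 0.45) and LTBP4 (-0.35 ± 0.11).

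Other receptors and co-receptors had 3 of 5 higher and 0 lower (median 0.48): the BMP co-receptor RGMA (1.22 ± 0.15), the neuropilin NRP1 (0.85 ± 0.11) and RGMB (0.48 ± 0.09). ACVRL1, a type I receptor known from endothelium, was read at 3.78, 3.05 and 3.48 CPM in WT and 1.17, 1.64 and 3.17 CPM in the knockout and did not pass (-0.78 ± 0.35, adjusted p = 0.135).

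Other antagonists had 3 of 14 higher and 3 lower (median 0.06). DCN, a small proteoglycan that binds TGF-beta, was read at 167, 157 and 152 CPM in WT and 21.9, 20.8 and 19.4 CPM in the knockout (-2.94 ± 0.08). DAND5, a secreted antagonist of NODAL and BMPs, fell by 1.05 ± 0.15 and SOSTDC1 by 1.38 ± 0.38. CRIM1, a membrane protein that binds BMPs, went from 2.37, 3.10 and 4.96 CPM to 31.7, 50.5 and 40.2 CPM (3.56 ± 0.25). FSTL4 had 1 count in WT and 68 in the knockout, a ratio of 65.9 with an exact 95% counting interval of 11.4 to 2640.

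Of 30 other intracellular regulators 9 rose, 0 fell and 21 did not pass (median 0.10). The share called is close to that of all genes tested, of which 26.0% passed, 14.5% higher and 11.5% lower. RUNX1, a transcription factor that partners with SMADs, was read at 0.242, 0.406 and 0.818 CPM in WT and 7.89, 10.3 and 7.46 CPM in the knockout (4.12 ± 0.34). The kinase gene HIPK2 (0.60 ± 0.09), LDLRAD4, whose product restrains SMAD phosphorylation (0.61 ± 0.10), and the ubiquitin ligase gene NEDD4L (0.57 ± 0.10) rose by less.

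Known targets of TGF-beta and SMAD3 had 16 of 29 higher and 2 lower (median 0.92). THBS1 and CCN2, both among those higher, reached the filter's cutoff throughout the knockout only. The smooth muscle genes TAGLN (7.46, 8.42 and 9.20 CPM in WT, 205, 253 and 229 CPM in the knockout, 4.78 ± 0.11) and ACTA2 (2.65 ± 0.12) rose. IGFBP3, an insulin-like growth factor carrier, went from 7.50, 8.93 and 11.2 CPM to 266, 232 and 261 CPM (4.78 ± 0.13), and the collagen gene COL3A1 rose by 1.36 ± 0.05. The 2 that fell were the transcription factor gene BHLHE40 (-1.32 ± 0.21) and the cell cycle inhibitor gene CDKN1A (-0.59 ± 0.14). COL1A1, COL1A2, FN1 and SNAI2 of this list also stand among the mesenchymal markers, whose summed level was higher in the knockout.

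Known BMP and SMAD1 targets, the ID genes and other members apart, had 9 of 15 higher and 4 lower (median 0.61). The BMP-responsive ATOH8 was read at 5.04, 5.23 and 5.22 CPM in WT and 26.9, 16.9 and 21.1 CPM in the knockout (2.07 ± 0.17, adjusted p = 8.71e-06). The homeobox gene DLX5 (3.05 ± 0.27) and HAND1 (0.61 ± 0.08) rose as well. The 4 that fell were GATA3 (-0.34 ± 0.06), GATA2 (-0.33 ± 0.06), HAND2 (-0.29 ± 0.08) and TBX2 (-0.29 ± 0.09). All 4 belong to the noradrenergic markers, whose summed level was lower in the knockout, as does HAND1, which rose.

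**Figure D4:**
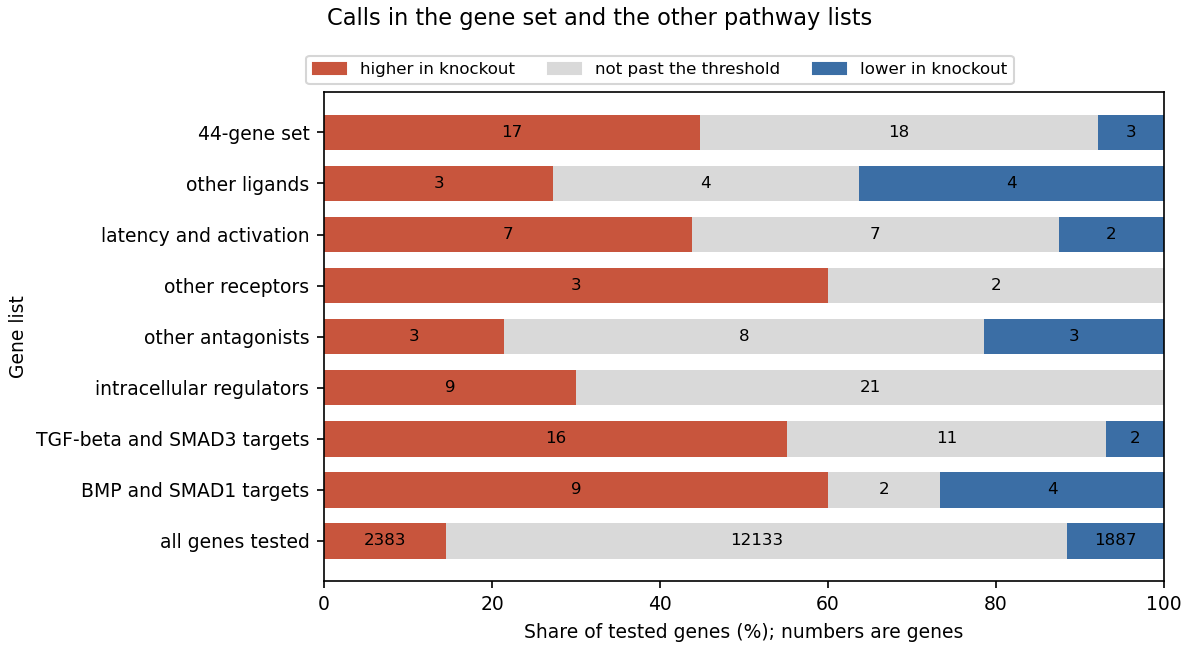
Share of tested genes in percent that were higher (red), lower (blue) or not past the threshold (grey) in the 44-gene set, the 7 further lists and all genes tested, with the number of genes in each segment. The targets of TGF-beta and SMAD3 have 16 of 29 genes higher, beside 14.5% of all genes. The gene set and lists were chosen with earlier results of these data known, so this contrast is descriptive only.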

How the data were processed

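The authors deposited a gene table of whole-number estimated counts without normalization and, per the file headers, transcript files with estimated counts and TPM for 251955 transcripts per library. The submitters' processing notes name cutadapt 3.5, Salmon 1.10.0, DESeq2 1.42.1 and GRCh38.p14; the annotation release and strand setting are not given in the sources used here. Per the labels' protocols, libraries were stranded, random-primed and depleted of ribosomal RNA. Salmon divides reads among similar transcripts, so near-identical genes are uncertain. No gene in the table has fewer than 10 counts in all, and 403 repeated rows were removed.

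Genes were filtered with filterByExpr (16403 kept), scaled by TMM and tested on genotype with the two-sided quasi-likelihood F-test of edgeR 4.0.16 (R 4.3.3), with Benjamini-Hochberg adjustment over all of them. SE is the size of the log2 fold change divided by the root of F. TPM and transcript reads were summed through GENCODE 29, which held 94.2% to 94.6% of the reads; TPM was used where transcripts held 90% to 110% of a gene's table counts. At these depths 1 count is 0.0466 to 0.0511 CPM. Replicate pairs differed beyond counting noise (chi-square per gene 4.37 to 22.7), so none was merged. Tests were checked on simulated data.

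The members and lists were chosen with earlier results of these data known. Named are DNAJC12, all 44 members, with values per library for those past the threshold with a log2 change of at least 0.5 and 1 CPM, and the 4 genes of each further list with the smallest adjusted p; library values of other members were added after they were seen. Some genes of the further lists are not reported here by name; the counts include them. Promoter sequences are RefSeq's (GRCh38.p14; 40 of 44 members matched). Alternatives were DESeq2 1.42.0, limma-voom 3.58.1, other scalings and filters, a replicate block, leaving out each library, a minimum fold of 1.2 and counts summed from transcripts, plain or length-corrected.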

Additional observations from a re-analysis of the deposited data

How the results depend on the processing

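Over 608 alternative values of single members, 571 kept their side of the threshold, 28 lost the call, 9 gained it, and 0 called values changed sign (uncalled values near 0 did); 13 of the 20 changes kept their call under every alternative run. With each library left out in turn, 17 to 22 members passed (15 to 19 higher, 1 to 3 lower, with 1 lower without WT replicate 2 or 3), as did 55 to 72 further pathway genes (43 to 56 higher, 11 to 16 lower) and 2966 to 4772 of all genes (1758 to 2622 higher, 1208 to 2150 lower, the lowest without knockout replicate 3). The TGFB2 share was 23.9 to 32.1 points higher. Against a minimum fold of 1.2, 15 members (1 lower), 8 lower pathway genes and 2469 genes in all (1541 higher, 928 lower) passed; TGFB1 (adjusted p = 0.134), TGFBR1 (0.110), SMAD4 (0.839), SMAD9 (0.606) and SMURF2 (0.205) did not. With length-corrected counts 2541 genes passed (1416 higher, 1125 lower). By library size without TMM the split over all genes was 2055 higher and 2438 lower, beside 2383 and 1887, with 16 and 3 members; the median of all genes shifted by -0.06. Same-numbered libraries did not deviate together (correlations 0.06, -0.03 and -0.07), so the numbers were not taken to pair them; a replicate block gave 4565 calls in all, 65 pathway genes and 23 members (20 higher, 3 lower), adding SMAD5 (adjusted p = 0.00368), BAMBI (0.0245) and TGIF1 (0.0331). DESeq2 called 23 members. BMP2 is in the counts of the 6 settings that kept it (DESeq2, no filter, and without any 1 WT library or without knockout replicate 1, adjusted p = 0.00267 to 0.0374). With a library left out, it entered the test through the knockout libraries alone, so those calls follow in part from that. Members at a few counts, BMP2 among them, are limited by depth.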
